A study of Mus musculus with 9 samples.

Results

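Mybph, Mybpc1 and Mybpc2, the genes of 3 myosin-binding proteins, were described in tibialis anterior, a fast muscle of the lower leg, across the 3 groups of an androgen experiment in male mice. They were taken by gene symbol, and the 3 rows were found in both deposited tables, among 14300 genes present in both and 14971 present in either. Mybph was chosen by its normalised counts in ORX+DHT against ORX and control muscle, being close to nothing with the androgen. Its values in the comparisons with the ORX+DHT group are therefore a description and carry no test. The ORX and control libraries were part of that choice, so its p-values in ORX against control are read as a description too. Mybpc1 and Mybpc2 were added as its paralogues, by name.

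All mice were C57BL/6J males, and muscle was taken 4 weeks after treatment. The control group kept the testes, the ORX group had been orchiectomised, and the ORX+DHT group had been orchiectomised and given dihydrotestosterone, a potent androgen that binds the androgen receptor directly. No transgene or deletion was listed for any group, and age, dose and route were not given in the sources used here. Each group held 3 libraries, labelled as biological replicates, and nothing further says that they came from separate animals, so p-values measure the spread between these libraries.

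Myosin-binding protein C sits in regular stripes on the thick filament of the sarcomere, where it binds myosin and titin and reaches towards actin, and it tunes how readily myosin heads engage. Mybpc1 encodes the isoform called slow skeletal, which fast fibres make too, and Mybpc2 encodes the fast skeletal isoform. Mybph encodes the shorter myosin-binding protein H, which resembles the carboxy-terminal end of protein C and also binds the thick filament. Mybpc3 and Mybphl, known mainly from heart, were not analysed here.

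The 3 genes lie on different chromosomes (build GRCm38, GENCODE M21 models). Mybph (ENSMUSG00000042451) spans chr1:134193448-134201232 on the plus strand, with 10 exons in its principal transcript and 2329 bases of exon in all. Mybpc1 (ENSMUSG00000020061) spans chr10:88518279-88605152 on the minus strand, with 29 exons and 4527 bases. Mybpc2 (ENSMUSG00000038670) spans chr7:44501699-44524656 on the minus strand, with 28 exons and 3611 bases.

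The 250 bases upstream of each RefSeq start site (build GRCm38.p6) are shown because transcripts of the 3 genes differed in their response to the androgen, and these are the stretches next to where transcription begins. Each is written 5′ to 3′ on the strand of its gene. Capitals mark matches, on either strand, to the E-box CANNTG, which myogenic factors bind, and to the M-CAT element CATTCC, which TEAD factors bind. They also mark the TATA box TATAAA, and the androgen response element is marked by its half-site AGAACA.
Mybph, chr1:134193198-134193447, plus strand: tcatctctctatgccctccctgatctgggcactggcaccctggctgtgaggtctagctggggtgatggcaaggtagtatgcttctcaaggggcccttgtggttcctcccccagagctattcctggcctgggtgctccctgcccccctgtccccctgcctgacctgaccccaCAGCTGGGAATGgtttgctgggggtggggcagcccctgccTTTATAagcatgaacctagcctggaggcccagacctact
Mybpc1, chr10:88605153-88605402, minus strand: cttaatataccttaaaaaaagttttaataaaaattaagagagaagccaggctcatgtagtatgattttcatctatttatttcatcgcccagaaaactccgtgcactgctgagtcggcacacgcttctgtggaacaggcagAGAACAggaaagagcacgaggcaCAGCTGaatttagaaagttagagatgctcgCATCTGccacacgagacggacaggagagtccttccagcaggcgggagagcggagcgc
Mybpc2, chr7:44524670-44524919, minus strand: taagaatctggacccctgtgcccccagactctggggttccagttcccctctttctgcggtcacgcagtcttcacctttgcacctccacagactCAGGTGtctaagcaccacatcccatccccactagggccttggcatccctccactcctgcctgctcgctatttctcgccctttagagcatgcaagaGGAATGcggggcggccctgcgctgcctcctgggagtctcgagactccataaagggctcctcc

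In the Mybph window, positions count back from the start site to the first base of a match. It held 1 E-box, CAGCTG, at -79, directly followed by an M-CAT match at -73. TTTATA at -39 matched the letters TATAAA on the reverse strand, and on the strand of the gene it overlaps the letters TATAAG. In the Mybpc1 window there were 2 E-boxes, at -87 and -57, and 1 half-site at -110. In the Mybpc2 window there was 1 E-box at -157 and 1 M-CAT match at -62. Such letters are common: of 32841 windows of this length, 66.2% held an E-box, 12.6% an M-CAT match, 12.4% a TATA box and 16.1% the half-site. None of the 3 windows held the full element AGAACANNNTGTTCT (0.00913% of windows), a MEF2 site (2.92%) or a CArG box (1.47%). These matches describe the letters in the windows and nothing about binding.

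Libraries held 1340209 to 1682235 reads over the listed protein-coding genes, and 12398 to 13000 genes had at least 1 read. Control replicate 1 stood apart on the first principal component (30.7% of the variance), with a score of -47.2 against 0.716 to 10.6 for the other libraries. For comparisons with control, the fold changes of the members, the counts of calls and the isoform ratio are therefore also given without it, as are the likeness rankings. Transcripts that define myofibres were abundant in every library: the summed normalised count of Ckm, Acta1, Myh4, Tnnt3, Ttn and Des was 184280 to 259782.

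Mybph was present in control muscle, higher in ORX muscle and nearly absent in ORX+DHT muscle. Its normalised counts (reads divided by a scaling factor per library, all 9 libraries on 1 scale) were 77.4, 34.3 and 113 in control replicates 1 to 3. In ORX muscle they were 265, 308 and 306, and in ORX+DHT muscle 1.01, 6.77 and 0.988. Every ORX library was above every control library, and every ORX+DHT library was below both groups.

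The mean of Mybph was 75.0 ± 39.5 for control, 293 ± 24.2 for ORX and 2.92 ± 3.33 for ORX+DHT muscle (SD, n = 3). The coefficient of variation was 52.7% in control and 8.27% in ORX libraries. In reads, the ORX+DHT values rest on 1, 7 and 1 reads, with exact Poisson 95% intervals of 0.0253 to 5.57 for a single read and 2.81 to 14.4 for 7. Control libraries held 62, 31 and 114 reads of Mybph, and ORX libraries 270, 361 and 370.

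Summed over libraries and scaled for depth, Mybph reads were 99.2 times as many in ORX as in ORX+DHT muscle (95% interval 52.1 to 218). The ratio of control to ORX+DHT muscle was 25.7 (13.3 to 57.0), and that of ORX to control muscle was 3.86 (3.32 to 4.50). The intervals take in counting error alone, and copies made by PCR cannot be told from separate molecules here. In whole muscle, fewer cells of a type and less RNA per cell cannot be told apart.

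**Figure D1:**
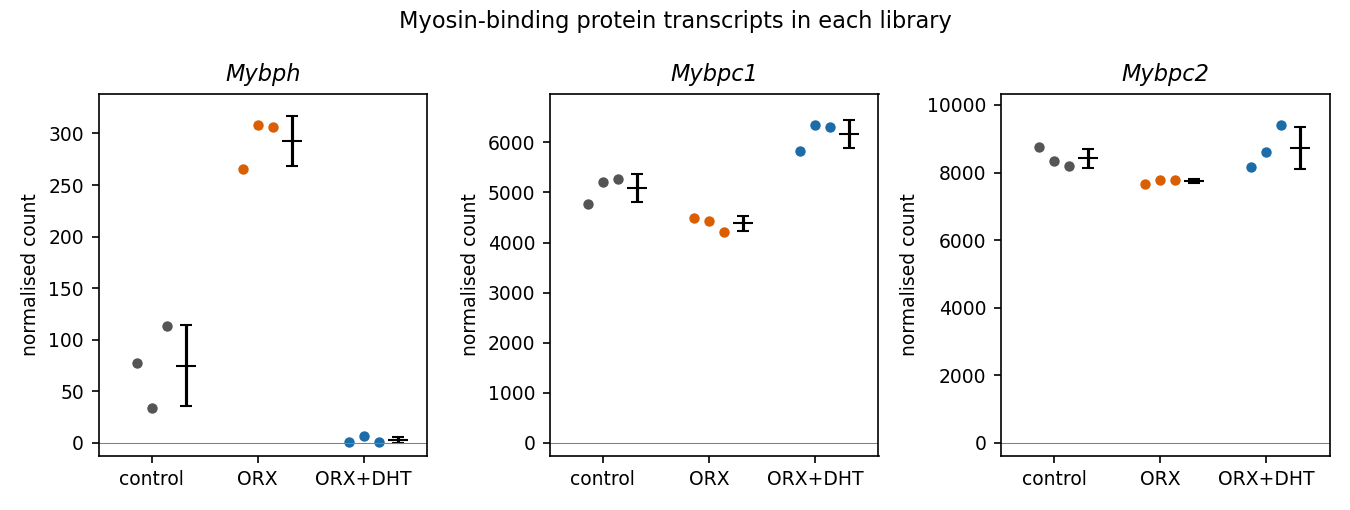
Normalised counts (linear y axes, each including 0 and with its own scale) of Mybph, Mybpc1 and Mybpc2 in the 3 groups. Each point is 1 library, and the bar beside it is the group mean with its SD (n = 3). Mybph lies between 265 and 308 in ORX and at 6.77 or less in ORX+DHT libraries, while Mybpc1 and Mybpc2 differ between groups by far smaller steps.

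Mybpc1 was the member that rose with the androgen. Its normalised counts were 4762, 5211 and 5275 in control, 4498, 4440 and 4205 in ORX, and 5837, 6341 and 6306 in ORX+DHT libraries. The means were 5083 ± 279, 4381 ± 155 and 6161 ± 282 (SD, n = 3). The 3 groups did not overlap, with ORX lowest and ORX+DHT highest, the reverse of the order of Mybph. Scaled by total reads instead (RPM), control libraries (2846 to 3536 RPM) and ORX libraries (3022 to 3224) overlapped, and ORX+DHT libraries (3991 to 4307) stayed above both. The overlap came from control replicate 1 (2846 RPM), while control replicates 2 and 3 (3444 and 3536 RPM) lay above every ORX library.

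Mybpc2 differed less between groups. Control libraries held 8743, 8346 and 8197 normalised counts, ORX libraries 7670, 7769 and 7792, and ORX+DHT libraries 8160, 8610 and 9399. The means were 8428 ± 282, 7744 ± 64.7 and 8723 ± 627 (SD, n = 3). ORX libraries lay below the others, and control and ORX+DHT libraries overlapped. In RPM, Mybpc2 ranged from 5225 to 5515 across control, from 5499 to 5600 across ORX and from 5579 to 6316 across ORX+DHT libraries, so the ORX group was no longer the lowest on that scale.

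The 3 transcripts differ greatly in level. In reads scaled to the library total and to kilobases of exon (RPKM), Mybpc2 had a level of 1499 ± 44.9 (control), 1534 ± 15.0 (ORX) and 1638 ± 103 (ORX+DHT). Mybpc1 had 723 ± 82.7, 692 ± 22.7 and 923 ± 36.8 RPKM, and Mybph 20.7 ± 11.5, 90.0 ± 7.26 and 0.852 ± 0.971. The order Mybpc2, Mybpc1, Mybph held in each of the 9 libraries. Ranked by reads per kilobase among all genes of a library, Mybpc2 was 22nd to 27th and Mybpc1 32nd to 48th. Mybph held ranks 1015 to 3001 in control, 338 to 385 in ORX and, with DHT, 7771 to 11471.

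As a share of the summed level of the 3 genes per kilobase, Mybph made up 0.922% ± 0.487 of control, 3.88% ± 0.315 of ORX and 0.0332% ± 0.0377 of ORX+DHT muscle. Mybpc1 made up 32.2% ± 1.90, 29.9% ± 0.952 and 36.1% ± 1.09, and Mybpc2 66.9% ± 1.98, 66.2% ± 0.719 and 63.9% ± 1.11. Mybpc2 exceeded Mybph 46.7 to 157 times in control libraries, 16.3 to 18.7 times in ORX libraries and 821 to 6135 times in ORX+DHT libraries, on the same scale. The highest of these ratios have a single Mybph read beneath them.

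The balance of both protein C isoforms was compared within each library, where the scaling of libraries cancels. The log2 ratio of Mybpc1 to Mybpc2 normalised counts was -0.88, -0.68 and -0.64 in control, -0.77, -0.81 and -0.89 in ORX, and -0.48, -0.44 and -0.58 in ORX+DHT libraries. ORX+DHT libraries lay above all others, and control and ORX libraries overlapped. The mean difference was 0.32 between ORX+DHT and ORX and 0.23 between ORX+DHT and control, each with a two-sided exact permutation p of 0.1 (0.15 adjusted over the 3 comparisons). Between ORX and control it was -0.09 (exact permutation p 0.3, 0.3 adjusted). Without control replicate 1 the differences from control were 0.16 for ORX+DHT (exact permutation p 0.2) and -0.16 for ORX muscle (exact permutation p 0.1). The smallest p that 3 libraries against 3 allow is 0.1, so this test cannot pass 0.05. Per kilobase, Mybpc2 exceeded Mybpc1 by factors of 2.09 ± 0.189 (control), 2.22 ± 0.0951 (ORX) and 1.77 ± 0.0852 (ORX+DHT). With the length of the principal transcript in place of all exons, these ratios were 1.81, 1.92 and 1.54.

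The first comparison asks what changes when the testes are removed. Of the 8631 genes tested with limma in ORX against control, 5 were called at an adjusted p under 0.05, which is 0.0579% of them; without control replicate 1 there were 51. None of the 3 members was called (0 of 3), and 622 genes (7.21%) had an unadjusted p under 0.05, Mybph being the member among them. All 3 members had groups that did not overlap, where 14.3% of all genes did. For Mybph the log2 fold change, on the log2(value + 1) scale used throughout, was 2.11 (SE 0.33, limma adjusted p 0.0621), the 6th highest value of all genes tested.

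This call for Mybph turned on the setting. It passed in 10 of 17 alternatives, including edgeR (adjusted p 0.033), DESeq2 (8.5e-08), and limma without control replicate 1, 2 or 3 (limma adjusted p 0.00486, 0.0104 and 0.00375). It did not pass without ORX replicate 1, 2 or 3 (limma adjusted p 0.218, 0.377 and 0.325). The direction was the same in every one of these fits, with log2 fold changes of 1.63 to 2.48. The ORX libraries of this comparison are the ones against which ORX+DHT was set, so the 2 results are not independent. Those libraries were part of the choice of Mybph, so its adjusted p-values here are read as a description.

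Mybpc1 had a log2 fold change of -0.21 in ORX against control (95% interval -0.52 to 0.09, limma adjusted p 0.758), which became 0.06 after quantile normalisation. Mybpc2 had one of -0.12 (-0.44 to 0.20, limma adjusted p 0.853), which became 0.06 after quantile normalisation and 0.03 with scaling by total reads. The latter scaling moved the median of all genes in this comparison to 0.15, so both genes lay below that median. Mybpc1 was at -0.26 and Mybpc2 at -0.10 without control replicate 1 (limma adjusted p 0.218 and 0.731). The intervals leave room for a change of either sign.

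The second comparison asks what the androgen does in orchiectomised mice. Of 8770 genes tested in ORX+DHT against ORX, limma called 358 (4.08%), 209 higher (2.38%) and 149 lower (1.7%). The split depended on the scaling, with 161 higher and 166 lower after quantile normalisation and 149 and 214 with scaling by total reads. Groups did not overlap for any of the 3 members, where 19.5% of all genes had such groups. Mybph is in this comparison by choice, and its mean of 2.92 in ORX+DHT muscle is below the minimum mean of 10, so it was tested through its level in ORX muscle.

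The log2 fold change of Mybph was -6.57 (SE 0.37), the lowest value of all 8770 genes. With a pseudocount of 10 in place of 1 it was -4.64, since a pseudocount sets the floor for a gene with so few reads. Mybpc1 rose by 0.49 on the log2 scale (SE 0.07, limma adjusted p 0.000421), a factor of 1.41 (95% interval 1.26 to 1.57), with all 3 ORX+DHT libraries above all 3 ORX libraries. The call was lost in 1 of 17 alternatives, the fit of all 9 libraries at once (limma adjusted p 0.0542). Mybpc2 did not pass at 0.17 on that scale (SE 0.08, limma adjusted p 0.321), a factor of 1.12 (1.01 to 1.26). Both values depended on the scaling. After quantile normalisation Mybpc1 was at 0.32 and Mybpc2 at 1.8e-15. That method assigns values by rank within a library, and the value of Mybpc2 is a rounding residue, not a measured change. With scaling by total reads Mybpc1 was at 0.42 and Mybpc2 at 0.09, and the median of all genes moved to -0.07.

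A further comparison sets ORX+DHT against control muscle. Limma called 3 of 8595 genes (0.0349%), or 66 without control replicate 1, and 14% of genes had groups that did not overlap, as did 2 of 3 members. The log2 fold change of Mybph, again a description, was -4.44 (SE 0.56), the lowest of all genes tested, or -2.63 with a pseudocount of 10. Without control replicate 1, 2 or 3 and without ORX+DHT replicate 1, 2 or 3 it lay between -5.09 and -4.06. Mybpc1 had a log2 fold change of 0.28 (95% interval -0.03 to 0.58, limma adjusted p 0.736), with every ORX+DHT library above every control library. Mybpc2 had one of 0.05 (-0.27 to 0.37, limma adjusted p 0.944). With control replicate 1 left out, Mybph was at -4.34, Mybpc1 at 0.23 and Mybpc2 at 0.07 (limma adjusted p 0.256 and 0.813 for the latter pair).

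**Figure D2:**
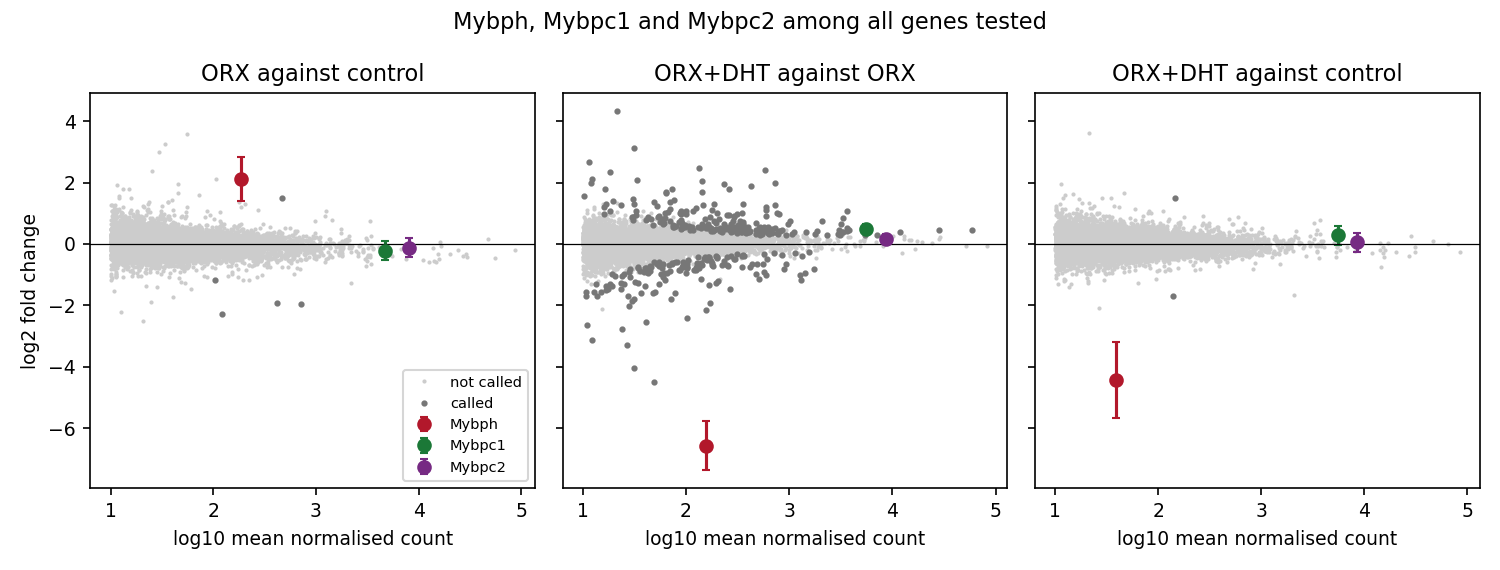
Log2 fold change (y axis) against the log10 mean normalised count (x axis) of every gene tested in the 3 comparisons. Small light points were not called and darker points were called by limma at an adjusted p under 0.05. Coloured points are Mybph, Mybpc1 and Mybpc2 with their 95% intervals: Mybph lies at 2.11, -6.57 and -4.44 in the 3 panels, below every other gene in both panels with ORX+DHT. Since Mybph was chosen by its level with DHT, its points and intervals in both those panels are a description and no test.

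Other genes of the thick filament were followed as a list. Of 18 listed, 16 were tested, and in ORX+DHT against ORX 4 were called higher, 2 lower and 10 did not pass. Quantile normalisation gave 2 higher and 2 lower calls, all 9 libraries in 1 fit gave 1 and 1, and the replicate number as a block 8 and 2. The median log2 fold change of the 16 was 0.15, beside 0.01 for all genes tested. Of all genes tested in the main fit, 2.38% were called higher and 1.7% lower. Mylk4, a myosin light chain kinase, rose by 1.08 (SE 0.10, limma adjusted p 2.89e-06), from 2357 to 4945 on the scale of the deposited table. Myh1, the myosin heavy chain of type IIx fibres, rose by 0.47 (SE 0.10, limma adjusted p 0.00755) but did not pass after quantile normalisation, where it was 0.22.

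Myom1 and Myom2, which encode M-band proteins that cross-link thick filaments, rose by 0.45 and 0.43 (limma adjusted p 0.00221 and 0.0025), close to the change of Mybpc1. The call for Myom2 was lost after quantile normalisation, where it was at 0.17. Myl3, a slow myosin light chain, fell by 0.75 (limma adjusted p 0.0166), a call that was lost without ORX replicate 2 or without ORX+DHT replicate 3. Obsl1, an obscurin-like cytoskeletal adaptor, fell by 0.69 (limma adjusted p 0.00278). Myh4, the heavy chain of type IIb fibres, was at -0.08 (limma adjusted p 0.767). In the fit of all 9 libraries at once, Myh1, Myom1, Myom2 and Myl3 did not pass in ORX+DHT against ORX (limma adjusted p 0.265, 0.189, 0.111 and 0.353). Against control, 0 of the 16 were called by limma, edgeR or DESeq2 in either group, with 4 (ORX) and 3 (ORX+DHT) at an unadjusted p under 0.05 in limma and medians of -0.12 and 0.03. Without control replicate 1 there was 1 call each, Mylk4, lower in ORX (-0.64, limma adjusted p 0.0256) and higher in ORX+DHT muscle (0.43, limma adjusted p 0.0498), with 10 and 7 genes at an unadjusted p under 0.05. Myh1 has close paralogues, so its counts are uncertain.

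**Figure D3:**
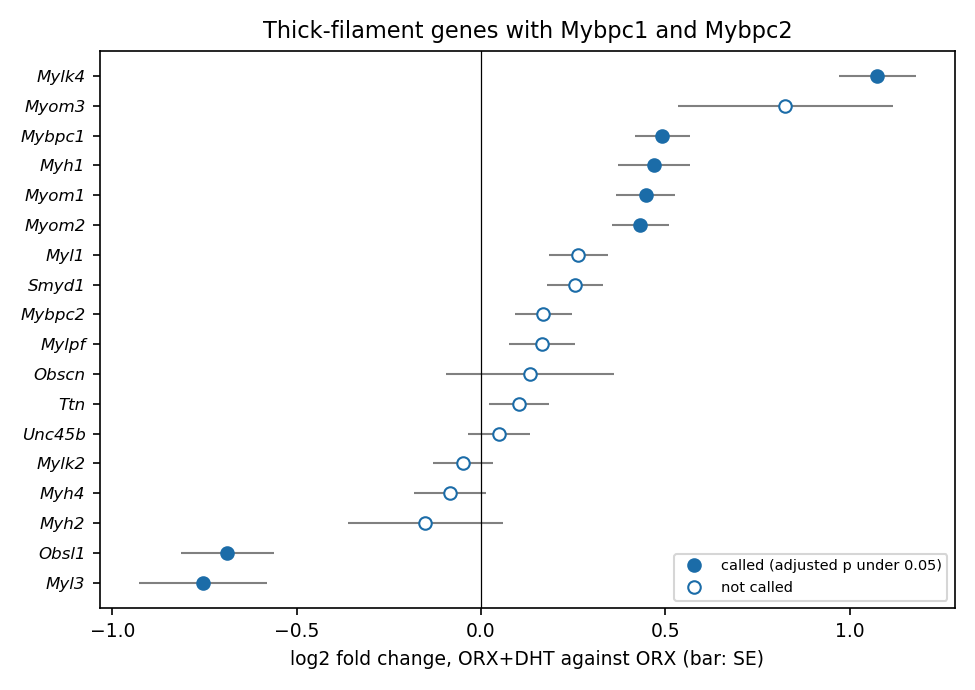
Log2 fold change in ORX+DHT against ORX (x axis, with its SE) of Mybpc1, Mybpc2 and the 16 tested genes of the thick-filament list (rows). Filled points passed the limma test at an adjusted p under 0.05 and open points did not. Mybpc1 at 0.49 lies beside Myh1, Myom1 and Myom2, and Mybph, at -6.57, is off this scale and not drawn.

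Genes of fast fibres gave 2 higher calls (Myh1 and Tnni2) and 0 lower among 10 tested of 11 listed in ORX+DHT against ORX. Their median was 0.05. Of all genes tested in this comparison, 2.38% were called higher and 1.7% lower. The fast-fibre split depended on the setting. It was 1 higher and 3 lower after quantile normalisation, and 2 higher and 1 lower with scaling by total reads. With the replicate number as a block it was 5 higher and 1 lower. Tnni2, the fast troponin I, rose by 0.39 (limma adjusted p 0.0103), a call that was lost without ORX replicate 2, without ORX+DHT replicate 3 and with all 9 libraries in 1 fit (limma adjusted p 0.715). Slow-fibre genes gave 1 lower call, Myl3, among 6 tested of 10 listed, with a median of -0.12. Of these 6, Tnnt1 reached the minimum mean only through the ORX group (12.6 in ORX and 9.05 in ORX+DHT muscle). No test is read from Tnnt1. Genes that mark denervated or regenerating muscle, a setting in which embryonic sarcomere genes return, gave 0 calls among 9 tested of 18 listed, by limma, edgeR or DESeq2, and 2 had an unadjusted p under 0.05 in limma. With ORX+DHT replicate 2 left out, the tested set changed to 10 genes and limma called 1 of them lower. That set differs from the 9 above, so no result is read from this call. The median of the 9 was -0.26, with 8 of 9 values below 0. Over all genes tested the median was 0.01, with 4311 of 8770 values below 0. Among the 9, Gadd45a, a stress-response gene, was at -0.59 on the log2 scale (limma adjusted p 0.119). Ncam1, a cell adhesion molecule, was at -0.79. Ncam1 reached the minimum mean of 10 only through the ORX group, with means of 17.4 in ORX and 9.43 in ORX+DHT muscle. It is included in the counts and the median above, where it is 1 of the 2 genes with an unadjusted p under 0.05. Because of the filter, that p of Ncam1 is not read as a result. Neither of the other comparisons gave a call in these 3 lists, with or without control replicate 1.

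Some transcripts of other cell types differed between the groups alongside Mybph. The summed normalised count of 7 measured bone and cartilage markers of 9 listed was 17.5, 0 and 113 in control replicates 1 to 3. It was 187, 120 and 160 in ORX libraries and 10.1, 4.83 and 15.8 in ORX+DHT libraries. ORX libraries were highest, and the control library with the most Mybph also had the largest sum. Most of the sum in ORX libraries, 90.1% to 93.3%, came from Ibsp, a bone matrix protein, and Mmp13, a collagenase, so it does not describe the whole class. Ibsp had 48.6 to 62.9 normalised counts in ORX and 0.967 to 5.93 in ORX+DHT libraries, and Mmp13 had 59.7 to 120 and 0.967 to 4.94. Both reached the filter on low values only through the ORX group, so no test is read from them. The other 5 markers summed to 10.8 to 12.8 in ORX, 0 to 18.9 in control and 2.90 to 4.94 in ORX+DHT libraries, and none of them was tested. Bglap, the gene of osteocalcin, had no read in any ORX+DHT library and at most 1.25 normalised counts elsewhere.

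The sum of 5 fibroblast markers was 1352 to 2729 (control), 2876 to 3841 (ORX) and, with DHT, 1700 to 2388. Of these markers, 2 of 5 tested, Col1a1 and Lum, genes of collagen and of a collagen-binding proteoglycan, were called lower in ORX+DHT against ORX (log2 fold changes -1.18 and -1.79, limma adjusted p 2.89e-06 and 4.81e-06). The other 3 did not pass: Dcn was at -0.05, Pdgfra at 0.06 and Col3a1 at -0.46 (limma adjusted p 0.933, 0.966 and 0.0597). For 6 tendon markers the sums were 331 to 442, 461 to 768 and 308 to 387. Of these, 1 of 4 tested, Fmod, was called lower in ORX+DHT against ORX. Of all genes tested in that comparison, 1.7% were called lower. Among the 6 myofibre markers, Acta1, skeletal actin, rose in the same comparison by 0.47 (limma adjusted p 0.00357), a call that was lost without ORX replicate 2 (0.0524) and with all 9 libraries in 1 fit (0.42). Des, the intermediate filament desmin, was at 0.28 on the log2 scale, and its call (limma adjusted p 0.0415) was lost in 12 of 17 alternatives, edgeR and DESeq2 among them. The part of these cell types in the values of Mybph was not tested.

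Satellite cell markers, 5 in number, summed to 35.8 to 59.9 (control), 42.6 to 62.0 (ORX) and, with DHT, 43.5 to 58.0, and the groups overlapped. Endothelial, macrophage and adipocyte sums overlapped between ORX and ORX+DHT libraries too. The sum of 4 Schwann cell markers was 94.0 to 99.3 (control), 135 to 155 (ORX) and, with DHT, 91.2 to 128. Of these 5 cell types, no marker that reached the filter on low values was called by limma, edgeR or DESeq2 in any comparison, and 0 to 2 per cell type had an unadjusted p under 0.05 in limma. Satellite cells had 1 such marker and adipocytes 0, so little was tested there.

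The genes whose profile was most like that of Mybph were found by Pearson's r of log2(value + 1) over the 9 libraries, among 8631 genes with a mean of at least 10. They were Atp1b2, a sodium pump subunit (r = 0.971), Ampd1, the muscle AMP deaminase (0.966), Mical2, an actin-oxidising enzyme (0.966), and Angptl2, a secreted protein (0.961). Next came Kcnj11, the pore of an ATP-sensitive potassium channel (0.956), Mafa, a transcription factor (0.953), Nabp1, a single-stranded DNA-binding protein (0.945), and Fxyd6, a pump regulator (0.941). The points share libraries and scaling factors, and the values are a description of 9 libraries in 3 groups. Without control replicate 1, r of these genes was 0.940 to 0.980, but the ranking changed: they held places 2 to 19, and 4 of the 8 stayed among the first 8.

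All 8 were lowest in ORX+DHT muscle, by much smaller steps than Mybph. That they were lowest there follows largely from picking them by likeness to Mybph. Atp1b2 had 564 ± 22.2 normalised counts (control), 749 ± 58.7 (ORX) and 374 ± 45.9 (ORX+DHT; SD, n = 3). Mical2 stood at 199 ± 23.8, 271 ± 23.2 and 116 ± 7.19, and Angptl2 at 159 ± 18.3, 226 ± 27.4 and 90.4 ± 22.2. Ampd1, the most abundant of them, stood at 1870 ± 106, 2103 ± 73.0 and 1191 ± 163. Fold changes of the 8 in ORX+DHT against ORX ranged from -1.33 (Angptl2) to -0.60 (Fxyd6) on the log2 scale.

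For Mybpc1 the most similar profiles were those of Slc38a2, an amino acid transporter (r = 0.976), Cd164, a sialomucin (0.962), Smyd1, a methyltransferase of muscle that aids myosin assembly (0.960), and Ssx2ip, a centrosomal protein (0.960). Slc38a2 had 293 ± 25.8 normalised counts (control), 197 ± 10.7 (ORX) and 389 ± 31.1 (ORX+DHT). Smyd1, also on the thick-filament list, stood at 1111 ± 47.1, 1031 ± 51.7 and 1229 ± 29.3. The genes most like Mybpc2 were Cyp27a1, a sterol hydroxylase (r = 0.953), Serhl, a serine hydrolase-like gene (0.940), Wdsub1, a WD-repeat protein (0.936), and Mlf1 (0.915). Cyp27a1 stood at 151 ± 14.0, 105 ± 4.29 and 167 ± 23.1. Mlf1 stood at 431 ± 60.4, 304 ± 14.2 and 450 ± 60.2. Without control replicate 1, 1 of the 4 genes named for Mybpc1, Slc38a2, stayed among the first 4 (r of the 4 was 0.959 to 0.984, at places 2 to 14). For Mybpc2, 3 of 4 stayed, and Mlf1 fell to place 9 (r of the 4 was 0.915 to 0.948).

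**Figure D4:**
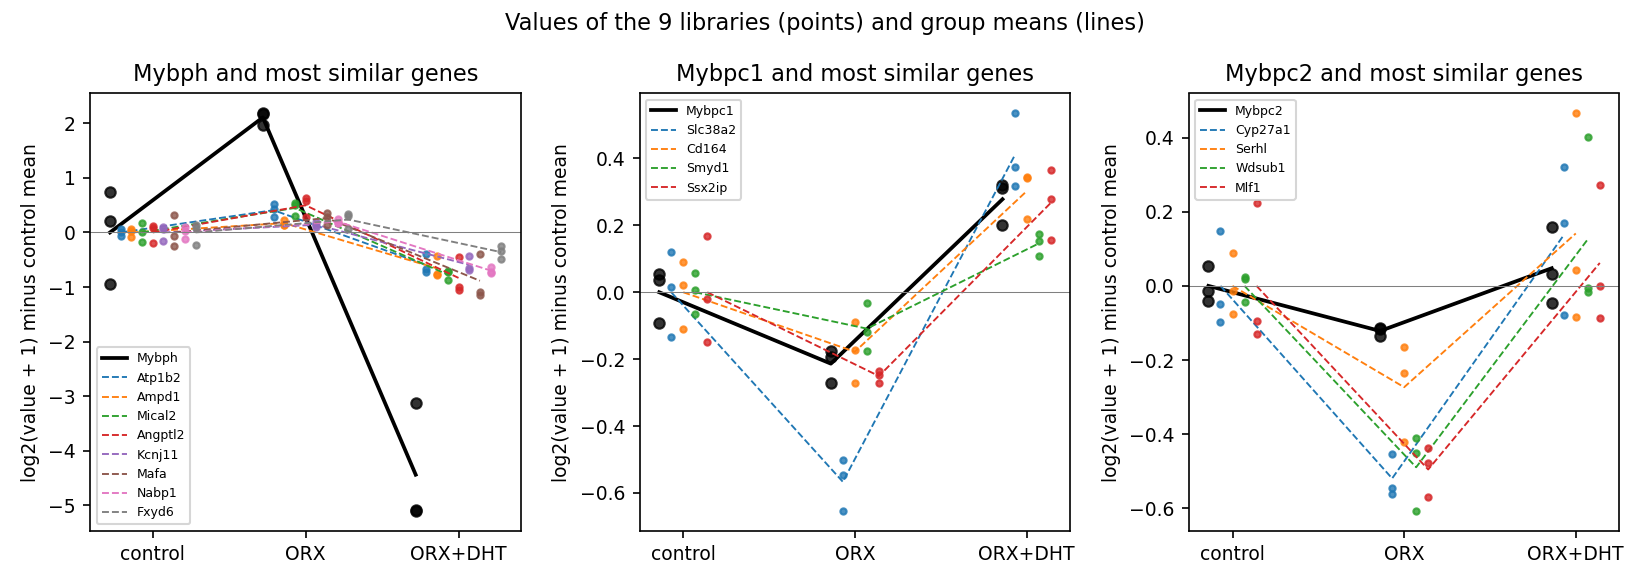
Values on the log2(value + 1) scale minus the control mean (y axis) for Mybph, Mybpc1 and Mybpc2 (black) and the genes most like each (colours) in the 3 groups. Points are libraries and lines join group means. The y axes differ: Mybph spans from above 2 to below -5, and the genes most like it stay between about -1 and 1.

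Genes next to the members on the chromosome were read out after the members' values were known. Within 250 kb of Mybph, 9 genes were measured and 5 tested, and 1 was called in ORX+DHT against ORX. In that comparison, 4.08% of all genes tested were called. The called neighbour was Fmod, a collagen-binding proteoglycan of tendon 145 kb away and 1 of the tendon markers above. It was at -1.28 on the log2 scale (SE 0.23, limma adjusted p 0.00205). Its normalised counts were 99.9, 95.1 and 125 in control, 154, 249 and 386 in ORX, and 89.2, 88.0 and 128 in ORX+DHT libraries. Fmod in the ORX libraries was above the other groups, which overlapped.

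Myog, the myogenic factor myogenin, 88.8 kb from Mybph, was below the filter on low values. Its values were 3.75, 1.11 and 12.9 (control), 15.7, 17.1 and 8.27 (ORX) and 5.07, 4.83 and 2.96 (ORX+DHT), so the control group overlapped both others while ORX and ORX+DHT did not overlap. Adora1, an adenosine receptor gene on the opposite strand, overlaps Mybph, with means of 1.49, 4.79 and 0.659. The library kit keeps the strand, but the strand setting used in counting is not given in the sources used here, so these few reads of Adora1 and those of Mybph in the overlap may not be separate. Near Mybpc1, 0 of 4 tested genes were called in ORX+DHT against ORX, and near Mybpc2 0 of 8, with log2 fold changes of -0.24 to -0.06 and -0.99 to 0.44. The neighbours of Mybpc2 had the lowest limma adjusted p at 0.0554 (Myh14, a non-muscle myosin heavy chain).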

How the data were processed

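RNA of tibialis anterior muscle was measured in 9 libraries, 3 each of control, ORX and ORX+DHT mice, with a strand-preserving kit on polyA RNA, per the labels' protocols. The submitters' processing notes name Trim Galore 0.6.7, HISAT2 2.2.1, featureCounts 2.0.1, DESeq2 1.36.0 and build GRCm38. The annotation release is not given in the sources used here. The authors deposited 2 tables of normalised counts of protein-coding genes, a signal in which reads are divided by 1 factor per library, for control with ORX (14596 genes) and ORX with ORX+DHT (14675 genes). The tables were scaled separately. Columns called sham there were taken as the control group, the only one without orchiectomy, and matched by replicate number; 0 columns were left unmapped.

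Values were whole multiples of 1 step per column (100% within a tolerance of 1e-06), which gave back the reads. The step of control replicate 3, 0.992, was close to 1, and all its values were whole multiples of that step too. Replicates differed by more than sampling noise (chi-square per degree of freedom of at least 1.73), so each counted once. Comparisons with both groups in 1 table were tested there, and ORX+DHT against control after rescaling the 14300 shared genes of all 9 libraries by median-of-ratios factors, the scale of the normalised counts printed. Levels per kilobase used exon lengths of GENCODE M21.

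Tests used limma 3.58.1 in R 4.3.3 (eBayes, trended) on log2(value + 1). Genes needed a mean of at least 10, and p-values were adjusted by Benjamini-Hochberg over all genes tested. Fold changes on this scale understate the change of low genes. Fitting was checked on simulated counts in which 200 genes changed. The alternatives comprised pseudocounts of 0.1 and 10, no filter, a minimum mean of 50, TMM, quantile normalisation, all 9 libraries in 1 fit, a replicate block, each library left out, edgeR 4.0.16 and DESeq2 1.42.0 on the recovered reads. Scaling by total reads, the length of the principal transcript and the readout of neighbouring genes were added after seeing the data. Each comparison had 17 alternatives.

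The members, the gene lists and the markers were chosen with earlier results of these data known. Named genes were the members, called genes of the lists (up to 4 per list and comparison, by size of fold change), the 8 genes most like Mybph and 4 each most like Mybpc1 and Mybpc2, and markers of cell types that moved with a member. Myom1, Myom2, Myh4, Gadd45a, Ncam1, Fmod, Myog, Adora1 and Myh14 were named after their values were seen. Promoter windows are from RefSeq (build GRCm38.p6), where all 3 members matched.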

Additional observations from a re-analysis of the deposited data

How the results depend on the processing

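ORX against control gave 5 called genes, ORX+DHT set against ORX 358 and ORX+DHT set against control 3, and these counts moved by more than 1.5 times under several alternatives. Without a filter on low genes they were 16 (ORX against control) and 21 (ORX+DHT against control). With all 9 libraries in 1 fit they were 23, 123 and 11, and with DESeq2 28, 224 and 13. In ORX+DHT against control, 6 genes were called after quantile normalisation and 6 with scaling by total reads. Leaving out each library in turn gave 1 to 51, 223 to 350 and 0 to 66 genes; the highest counts of the comparisons with control came without control replicate 1.

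Mybph in ORX against control passed the limma test with log2 fold changes of 1.95 (pseudocount 10), 2.11 (no filter), 2.16 (quantile normalisation) and 2.26 (total reads), and with 1.97 in edgeR and 1.97 in DESeq2. Leaving out 1 library gave 1.63 to 2.48. In the comparisons with ORX+DHT its value moved to -4.64 and -2.63 with a pseudocount of 10, and no value was obtained against control at a minimum mean of 50, which Mybph does not reach there. Mybpc1 lost its call in ORX+DHT against ORX with all 9 libraries in 1 fit (log2 fold change 0.49, limma adjusted p 0.0542). In ORX against control, quantile normalisation turned the sign of Mybpc1 (0.065) and Mybpc2 (0.060), and total reads that of Mybpc2 (0.034). Mybpc2 in ORX+DHT against control ranged from -0.0074 to 0.095 when a library was left out. The Mybpc1 to Mybpc2 ratio kept its direction in all 9 alternatives of each comparison.

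Among 1295 values of other named genes under an alternative, 1228 kept direction and side of the threshold, 40 lost a call, 14 gained one and 13 changed sign, none of them a called value. In ORX against control these were Myh1 (0.18) and Smyd1 (0.042) after quantile normalisation, Smyd1 (0.047) and Myl3 (0.055) with total reads, and Myl3 when a library was left out (-0.48 to 0.17). In ORX+DHT against control they were Tnni2 after quantile normalisation (0.057) and, with a library left out, Tnni2 (-0.40 to 0.13), Mlf1 (-0.043 to 0.17), Serhl (-0.021 to 0.25) and Wdsub1 (-0.012 to 0.20). The cause of these shifts was not tested.

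Libraries of different groups share replicate numbers. Deviations of same-numbered libraries correlated at -0.165 to 0.151, and 1 of 9 pairs exceeded 0.1. The main fits did not use the numbers to pair libraries. Between ORX and ORX+DHT libraries, however, same-numbered pairs (0.063, 0.061 and 0.151) lay above all other pairs (-0.087 to 0.025). Whether the numbers mark a shared effect in that comparison was not tested. With the replicate number as a block, 571 genes were called in ORX+DHT against ORX, against 358 without it, and Mybpc2 had a limma adjusted p of 0.0525. With that block, Mybph in ORX against control passed (log2 fold change 2.11, limma adjusted p 0.0308). Depth limits Mybph in ORX+DHT muscle, where 9 reads in all carry its level, and Adora1, Bglap and Myog, which had few reads in every library.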
